A study of Mus musculus with 2 samples.

Results

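The conjugation enzymes of the liver were compared between a control library and an iFIRKO library. The members were all rows whose gene symbol marks a glutathione S-transferase (Gst or the microsomal Mgst), a UDP-glucuronosyltransferase (Ugt, families 1 to 3) or a cytosolic sulfotransferase (Sult), with pseudogenes left out. By this rule 67 of the 53342 rows were members, namely 25 Gst, 21 Ugt and 21 Sult genes.

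Total RNA of whole liver was sequenced as stranded mRNA libraries, 1 per group. iFIRKO mice carried Adipoq-CreERT2, a Cre recombinase that tamoxifen activates and the adiponectin promoter drives in adipocytes, together with Insr flox/flox, so that the insulin receptor gene is deleted in adipocytes and not in hepatocytes. The labels give the control as WT, whereas the methods of the study describe control mice as IR flox/flox. Both groups were male, 7 weeks old when dosing began, and given tamoxifen at 100 mg/kg on 5 consecutive days, with tissue taken 3 days after the final dose. The sources used here do not state whether a library came from 1 mouse or from several, and with 1 library per group no difference below has a replicate check and no p-value was computed.

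These enzymes carry out conjugation, the step in which the liver joins a polar group to a foreign compound, drug, steroid, bile acid or pigment so that it can leave in bile or urine. Glutathione S-transferases add the tripeptide glutathione to reactive electrophiles, UDP-glucuronosyltransferases of the endoplasmic reticulum add glucuronic acid from UDP-glucuronic acid, and sulfotransferases of the cytosol add sulfate from the donor PAPS. Many of the genes lie in tandem clusters of close copies, many are induced through the factors NRF2, CAR, PXR and AhR, and several differ between male and female mouse liver.

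Values are normalized read counts, returned here from the deposited log2 scale to the linear scale. The estimated depth was 21138484 read pairs for control and 20652740 for iFIRKO, and 1 read pair was worth 1.987 and 2.013 normalized reads. A gene was tested when it had at least 41.8 normalized reads, a CPM of 1 (CPM being normalized reads per 1000000 of the mean library total), in 1 or both libraries, which 13400 genes did. Their median log2 fold change was 0.008. The fold change is iFIRKO over control after a pseudocount of 4.18 normalized reads was added to each value, and a gene is called higher or lower here when it differed by more than 1.5-fold, the threshold the study used. Each interval in brackets is an exact Clopper-Pearson interval at 95% on estimated read pairs. It covers counting error only and says how 2 libraries differ, not 2 genotypes. Where 2 levels are given for a gene, the control comes before iFIRKO, and the number that follows them is the log2 fold change.

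The 3 families differed in their summed level. Gst members summed to 298349 normalized reads in control against 352881 in iFIRKO liver with a log2 ratio of 0.24 [0.23, 0.25]. Ugt members summed to 164651 and 169764, a log2 ratio of 0.04 [0.03, 0.06], and Sult members to 43313 and 30754, a log2 ratio of -0.49 [-0.52, -0.46]. The direction of each sum was the same under every scaling tried.

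Of the 67 members, 48 were tested (22 Gst, 18 Ugt and 8 Sult), 10 were above 0 but under the minimum, and 9 were listed at 0 in both libraries. The Gst and Sult sums rested on few genes, while the Ugt sum was spread over more. *Mgst1* alone held 37.1% of the Gst sum in the control library, *Ugt1a1* 16.9% of the Ugt sum and *Sult1a1* 50.1% of the Sult sum. Of the 48 tested members 6 were called higher and 3 lower. These are 12.5% and 6.25% of those tested, beside 4.46% higher and 7.28% lower among all 13400 genes. Of all genes called, 38% were higher as deposited and 50.5% when both libraries were scaled to the sum of hepatocyte markers, most of which is *Alb*. By family, 4 Gst genes were higher and 0 lower with a median log2 fold change of 0.13, 1 Ugt gene was higher and 1 lower with a median of 0.04, and 1 Sult gene was higher and 2 lower with a median of -0.13, which turned to 0.09 with no minimum level. More than 2-fold, 1 member was higher (*Gsta1*) and 1 lower (*Ugt2b37*), where 1.56% and 1.99% of all genes passed.

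**Figure D1:**
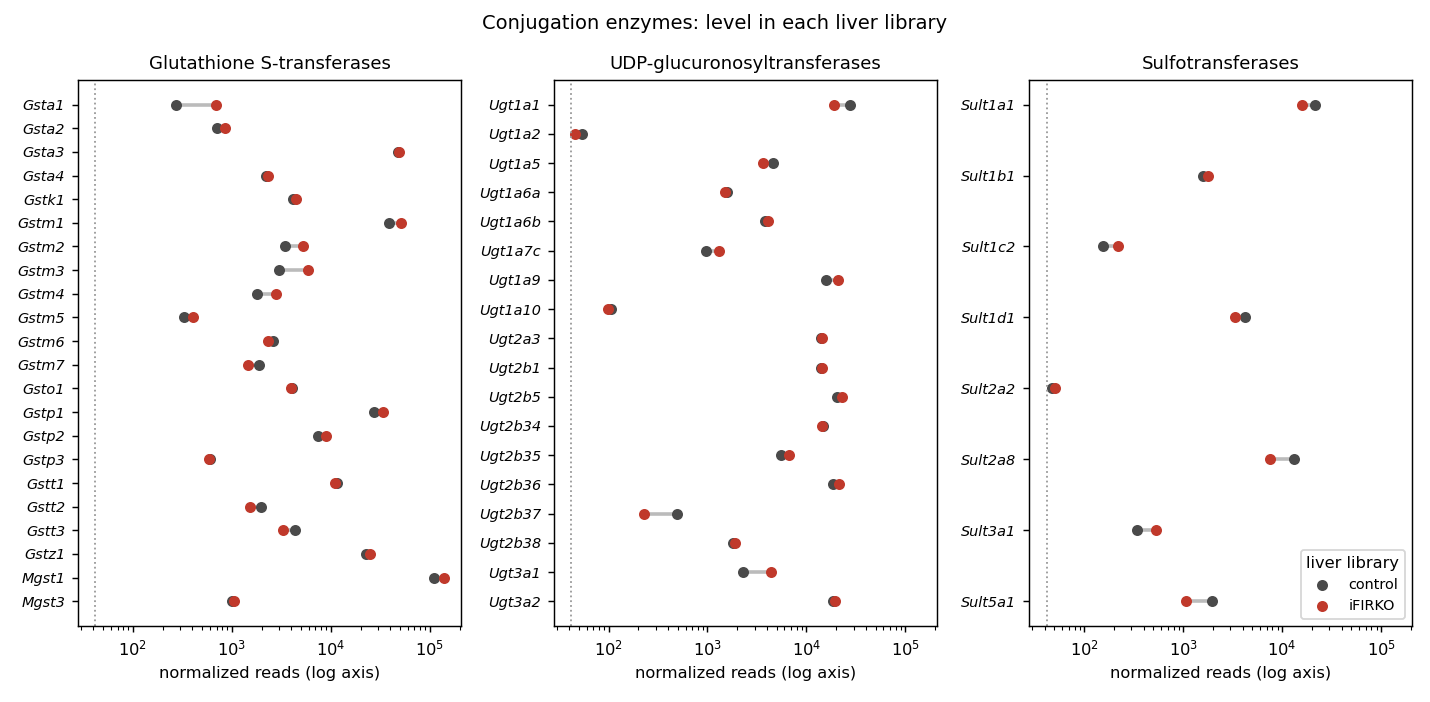
Normalized reads of the 48 tested conjugation genes in the control library (grey) and the iFIRKO library (red), on a log axis, with the dotted line at the minimum of 41.8. The points of most genes nearly coincide, and *Gsta1*, *Gstm3*, *Ugt2b37*, *Ugt3a1*, *Sult2a8* and *Sult5a1* show the widest gaps.

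Among the glutathione S-transferases the mu class held 3 of the 4 called genes. The 7 *Gstm* genes summed to 51835 normalized reads in control against 68849 in iFIRKO liver with a log2 ratio of 0.41 [0.39, 0.43]. These cytosolic enzymes conjugate epoxides and quinones, among other substrates. *Gstm3* read 2962 in control against 5884 in iFIRKO liver with a log2 fold change of 0.99 [0.90, 1.08]. *Gstm2* read 3452 and 5253, 0.61 [0.52, 0.69], and *Gstm4* read 1814 and 2783, 0.62 [0.50, 0.74]. All 3 were called higher, but the intervals of *Gstm2* and *Gstm4* reach below the 1.5-fold threshold of 0.58.

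*Gstm1*, the most abundant mu gene in both libraries, had 38826 normalized reads in control against 50769 in iFIRKO liver. Its log2 fold change of 0.39 [0.36, 0.41] was under the threshold, yet its difference of reads exceeded that of *Gstm2*, *Gstm3* and *Gstm4*. *Gstm5*, at a low level, read 325.8 and 405.8, 0.31 [0.02, 0.63]. The remaining mu genes lay on the other side of 0. *Gstm6* read 2580 and 2297, -0.17 [-0.28, -0.05], and *Gstm7* read 1876 and 1457, -0.36 [-0.51, -0.22].

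On the GRCm38 build the cluster lies on chromosome 3 from *Gstm5* (chr3:107895821-107898686, plus strand) to *Gstm4* (chr3:108040408-108044894, minus strand). From *Gstm5* onward the log2 fold changes in gene order were 0.31, -0.36 for *Gstm7*, -0.17 for *Gstm6*, 0.99 for *Gstm3*, 0.61 for *Gstm2*, 0.39 for *Gstm1* and 0.62 for *Gstm4*, of which those of *Gstm3*, *Gstm2* and *Gstm4* passed 1.5-fold. Together the last 4 genes summed to 47053 and 64689 normalized reads, a log2 ratio of 0.46 [0.43, 0.48]. Coding sequences within the cluster are alike, with 89.4% identity between *Gstm1* and *Gstm3* and 79.2% between *Gstm3* and *Gstm4*. Of the 50-base windows in the *Gstm3* transcript 28.8% occur in another gene, and none of those in *Gstm4* do.

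**Figure D2:**
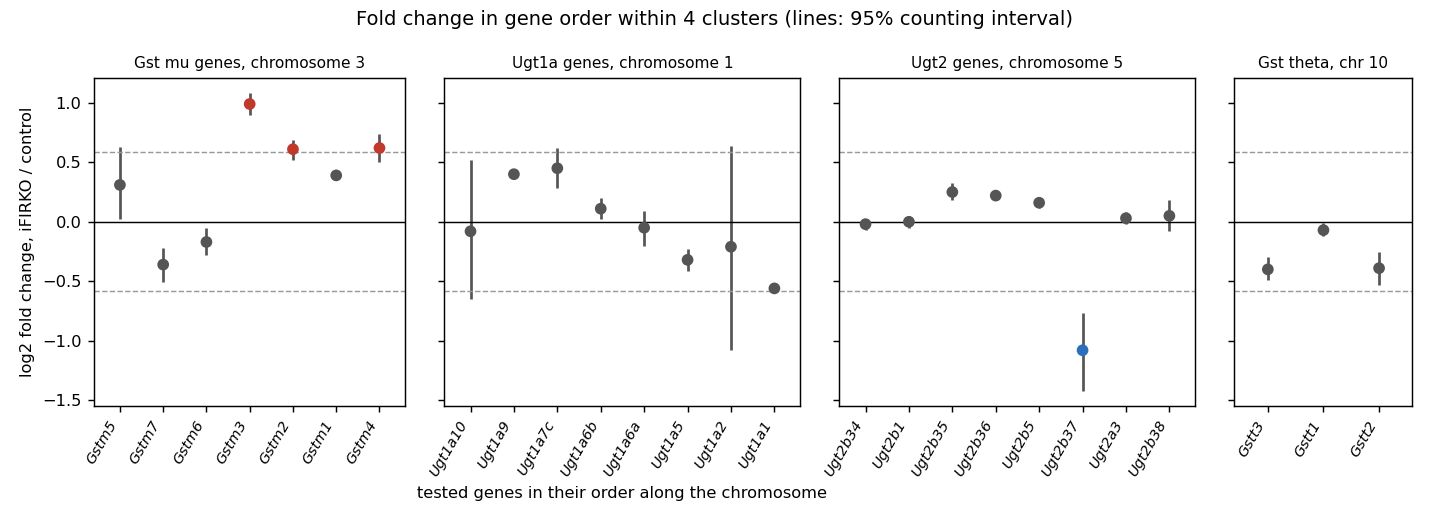
Log2 fold change (iFIRKO over control) of the tested genes in their order along the chromosome in the Gst mu, Ugt1a, Ugt2 and Gst theta clusters, with vertical lines for the 95% counting interval and dashed lines at 1.5-fold. *Gstm3*, *Gstm2*, *Gstm1* and *Gstm4* sit together above 0. *Ugt1a9* at 0.40 and *Ugt1a1* at -0.56 lie on opposite sides of 0, with *Ugt1a10*, first in order, at -0.08. *Ugt2b37* at -1.08 lies apart from its neighbours.

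The alpha class, which conjugates lipid peroxidation products, held the member with the greatest fold change. *Gsta1* (chr9:78230656-78242684, plus strand, 7 exons) read 270.0 in control against 692 in iFIRKO liver with a log2 fold change of 1.34 [1.07, 1.65]. *Gsta2* read 705.2 and 855.2, 0.28 [0.07, 0.49], and was not called. The coding sequences of these copies are 97.6% identical, so the way reads were assigned bears on both values. The 60-base part of the coding sequence in which they differ most is shown from coding base 449 to 508 (GENCODE M21 transcripts, GRCm38), with the 5 bases that differ in capitals.
Gsta1: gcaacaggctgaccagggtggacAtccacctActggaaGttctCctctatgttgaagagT
Gsta2: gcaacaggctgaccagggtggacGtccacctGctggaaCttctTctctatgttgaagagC
Long stretches around these 5 bases are the same in both genes, and a read that falls in them could come from either. Of the 50-base windows of *Gsta1*, 89.7% occur in at least 1 other gene, most of them in the predicted gene *Gm3776*, which read 185.7 and 547.7, 1.54 [1.22, 1.92]. *Gm10639*, a predicted gene of the same kind, read 69.02 and 154, 1.11 [0.54, 1.76]. Both were named after their values were seen. Summed, *Gsta1* and *Gsta2* had 975 and 1547 normalized reads, a log2 ratio of 0.67 [0.50, 0.83].

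The abundant alpha genes hardly differed. *Gsta3* had 47313 normalized reads in control against 48390 in iFIRKO liver, 0.03 [0.01, 0.06]. *Gsta4*, whose product prefers the lipid aldehyde 4-hydroxynonenal, read 2227 and 2312, 0.05 [-0.07, 0.17]. The class summed to 50515 and 52250, a log2 ratio of 0.05 [0.02, 0.07], because *Gsta3* outweighed *Gsta1*.

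The microsomal and pi enzymes were the other large part of the Gst sum. *Mgst1*, a membrane enzyme with transferase and peroxidase activity, had the most reads of any member, 110696 in control against 138417 in iFIRKO liver, 0.32 [0.31, 0.34]. *Mgst3* read 993.2 and 1059, 0.09 [-0.09, 0.27]. Neither was called, although the *Mgst1* gain of reads was the greatest of any member. *Gstp1* read 27536 and 33595, 0.29 [0.25, 0.32], *Gstp2* read 7478 and 8962, 0.26 [0.20, 0.32], and *Gstp3* read 600.1 and 588.6, -0.03 [-0.27, 0.21]. The pi class summed to 35614 and 43145 reads, a log2 ratio of 0.28 [0.25, 0.31].

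*Gstp1* and *Gstp2* had overlapping intervals, and they are near copies on chromosome 19 with 98.1% identical coding sequence. Their first 60 coding bases hold 6 of the differing bases, in capitals.
Gstp1: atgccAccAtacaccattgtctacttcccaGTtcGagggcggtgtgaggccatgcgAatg
Gstp2: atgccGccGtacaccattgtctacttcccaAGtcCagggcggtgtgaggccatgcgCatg
Their sum, 35014 normalized reads in control against 42556 in iFIRKO liver, had a log2 ratio of 0.28 [0.25, 0.31], which does not depend on how reads were divided between them, unless shared reads were left out or counted more than once.

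The theta class had a lower sum. *Gstt3* read 4307 in control against 3268 in iFIRKO liver, -0.40 [-0.49, -0.30], and *Gstt2* read 1977 and 1508, -0.39 [-0.53, -0.25]. *Gstt1*, the most abundant theta gene, read 11649 and 11120, -0.07 [-0.12, -0.01], and *Gstt4*, which lies between *Gstt1* and *Gstt2* on chromosome 10, was listed at 0 in both. All 3 tested theta genes were below 0 as deposited, though *Gstt1* turned to 0.01 when libraries were scaled to hepatocyte markers, and none was called. *Gm20441*, annotated over *Gstt3* on the same strand, read 1106 and 1022, -0.11 [-0.29, 0.06], so the value of *Gstt3* is less certain. The class summed to 17933 and 15896, a log2 ratio of -0.17 [-0.22, -0.13].

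The remaining Gst genes had values close to each other in the 2 libraries. *Gstz1*, the maleylacetoacetate isomerase of tyrosine breakdown, read 22582 and 24785, 0.13 [0.10, 0.17]. *Gstk1*, of mitochondria and peroxisomes, read 4108 and 4480, 0.12 [0.04, 0.21], and *Gsto1*, a reductase of dehydroascorbate, read 4050 and 3993, -0.02 [-0.11, 0.07]. Under the minimum were *Gsto2*, at 11.9 in control against 2.013 in iFIRKO liver, and *Mgst2*, at 9.935 and 6.217.

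**Figure D3:**
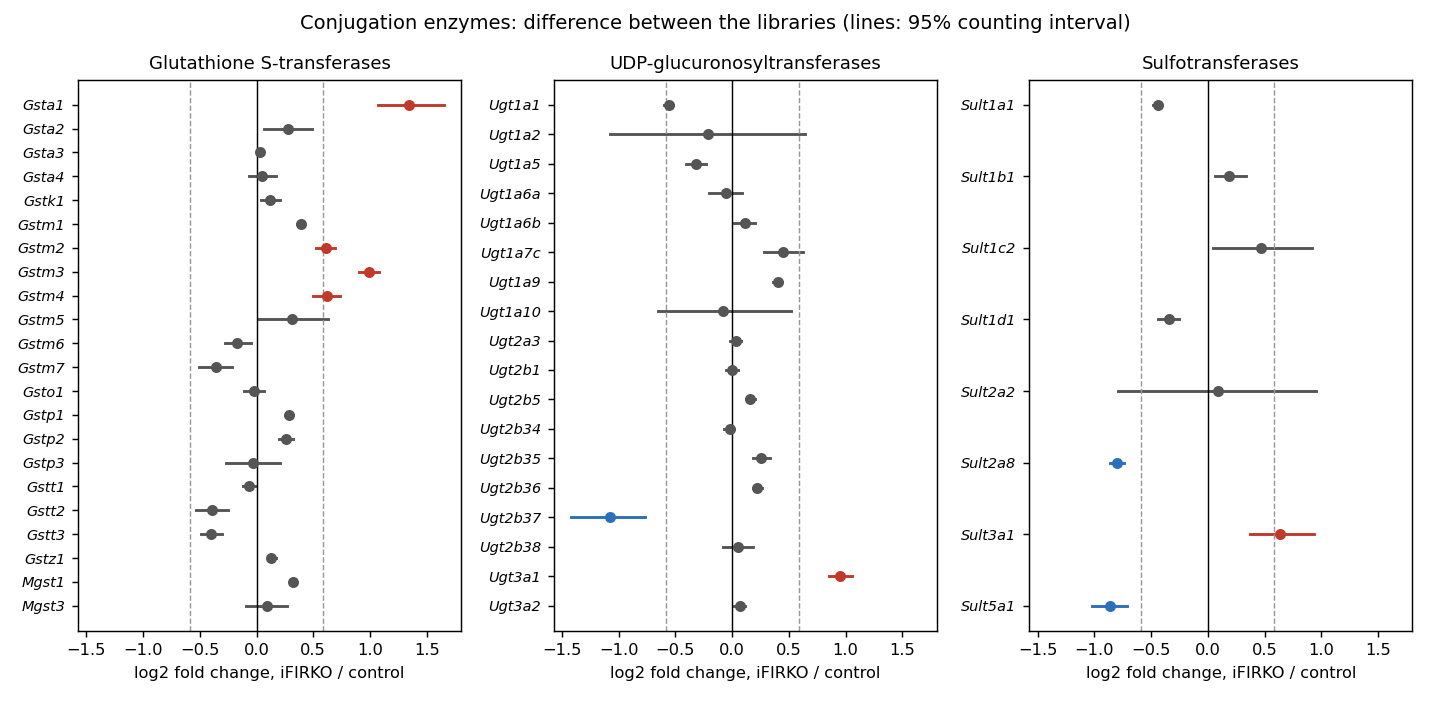
Log2 fold change (iFIRKO over control) of each tested conjugation gene by family, with horizontal lines for the 95% counting interval and dashed lines at 1.5-fold, called genes in red (higher) or blue (lower). The 4 called Gst genes are all higher, *Ugt3a1* and *Ugt2b37* lie on opposite sides, and 2 of the 3 called Sult genes are lower.

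The Ugt1a genes of chromosome 1 had opposite signs at *Ugt1a9* and *Ugt1a1*. Each of these genes starts with its own exon or exons, which code for the part that binds the substrate. These are spliced to shared downstream exons, which code for the part that binds UDP-glucuronic acid. The transcripts used for *Ugt1a6a* and *Ugt1a6b* have 6 exons, the first of 127 bases, and those of the other genes have 5. *Ugt1a1* (chr1:88211959-88218997, plus strand), which conjugates bilirubin, read 27772 in control against 18850 in iFIRKO liver, -0.56 [-0.60, -0.52]. At 1.47-fold lower it lay just under the threshold and was not called. *Ugt1a9* (chr1:88070800-88218997), which takes phenols, read 15692 and 20708, 0.40 [0.36, 0.44].

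The join between the own and the shared exons of these 2 genes is shown with 45 bases on each side (GENCODE M21, GRCm38, plus strand), the shared exon in capitals.
Ugt1a1: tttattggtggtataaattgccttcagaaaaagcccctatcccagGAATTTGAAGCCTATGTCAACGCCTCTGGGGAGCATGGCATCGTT
Ugt1a9: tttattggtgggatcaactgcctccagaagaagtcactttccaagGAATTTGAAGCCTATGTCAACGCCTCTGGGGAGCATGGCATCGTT
The coding parts of their first exons are 57.4% identical, whereas the 735 coding bases of the shared exons are the same, and 1311 bases of each transcript lie in shared exons. A read inside those exons belongs to no single gene, and how the authors divided such reads is not given in the sources used here. The Ugt1a sum does not depend on that division, unless shared reads were left out or counted more than once. It was 54532 normalized reads in control against 50315 in iFIRKO liver with a log2 ratio of -0.12 [-0.14, -0.09].

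The tested genes between these 2 had log2 fold changes between theirs, except *Ugt1a7c*. Their separate values are uncertain, since 100% of the 50-base windows of *Ugt1a6a* and 80.7% of those of *Ugt1a6b* occur in another gene. For both, the gene sharing most windows is *Ugt1a7c*, and how such reads were divided is not known. Downstream of *Ugt1a9*, *Ugt1a7c* read 960.8 and 1315, 0.45 [0.28, 0.62], and *Ugt1a6b*, which with *Ugt1a6a* handles planar phenols, read 3779 and 4088, 0.11 [0.02, 0.20]. *Ugt1a6a*, 98.4% identical to *Ugt1a6b* in coding sequence, read 1573 and 1517, -0.05 [-0.20, 0.09]. *Ugt1a5*, nearer to *Ugt1a1*, read 4594 and 3680, -0.32 [-0.41, -0.23]. The genes with few reads were *Ugt1a10*, 105.6 and 99.68 with -0.08 [-0.65, 0.52], and *Ugt1a2*, 53.39 and 45.63 with -0.21 [-1.08, 0.64]. Their intervals hold 0, so no difference was detectable at this depth. *Ugt1a8* was under the minimum at 3.049 and 11.95.

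The Ugt2 genes of chromosome 5, which glucuronidate steroids and bile acids, were the steadiest group apart from 1 member. *Ugt2b37* (chr5:87240493-87254804, minus strand, 6 exons) read 493.7 in control against 230.9 in iFIRKO liver, -1.08 [-1.42, -0.77], and was called lower. Its neighbour and close copy *Ugt2b5* read 20446 and 22790, 0.16 [0.12, 0.20]. Their coding sequences are 94.7% identical, and 18.3% of the 50-base windows of *Ugt2b37* occur in another gene. They are shown from coding base 480 to 539, where they differ most, with the 12 differing bases in capitals.
Ugt2b5: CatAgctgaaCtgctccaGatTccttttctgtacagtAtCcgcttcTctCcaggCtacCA
Ugt2b37: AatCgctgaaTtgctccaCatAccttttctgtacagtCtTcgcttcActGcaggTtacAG
This stretch holds 12 differences in 60 bases, beside 5 in the stretch of *Gsta1* and *Gsta2* above. *Ugt2b38*, which is 97% identical to *Ugt2b5*, read 1824 and 1891, 0.05 [-0.08, 0.18]. The 3 genes together had 22764 and 24911 normalized reads, a log2 ratio of 0.13 [0.09, 0.17].

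The other Ugt2 genes had log2 fold changes from -0.02 to 0.25. *Ugt2b36* read 18419 and 21461, 0.22 [0.18, 0.26], and *Ugt2b35* read 5530 and 6595, 0.25 [0.18, 0.33]. The genes nearest to 0 were *Ugt2b1*, 14183 and 14205 with 0.00 [-0.05, 0.05], *Ugt2b34*, 14630 and 14402 with -0.02 [-0.07, 0.02], and *Ugt2a3*, 13930 and 14206 with 0.03 [-0.02, 0.08]. The signs of *Ugt2b1* and *Ugt2b34* turned under other scalings. *Ugt2a1* and *Ugt2a2*, which share a locus at the end of the cluster and are known from olfactory tissue, were listed at 0 in both libraries. The 7 *Ugt2b* genes summed to 75526 and 81575, a log2 ratio of 0.11 [0.09, 0.13].

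*Ugt3a1* was the called Ugt gene on the higher side. Enzymes of family 3 use other UDP sugars, such as UDP-N-acetylglucosamine, in place of UDP-glucuronic acid. *Ugt3a1* (chr15:9276888-9315032, plus strand, 7 exons) read 2290 in control against 4431 in iFIRKO liver, 0.95 [0.85, 1.06]. Its neighbour *Ugt3a2*, with more reads, read 18373 and 19238, 0.07 [0.02, 0.11]. The pair is 93.3% identical in coding sequence, and 9.38% of the 50-base windows of *Ugt3a1* occur in another gene. Coding bases 239 to 298, with the 16 differing bases in capitals, show where they part.
Ugt3a1: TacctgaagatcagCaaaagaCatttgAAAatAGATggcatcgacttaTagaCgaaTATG
Ugt3a2: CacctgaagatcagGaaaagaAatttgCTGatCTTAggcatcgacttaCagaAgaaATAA
The interval of *Ugt3a1* lies above the threshold, and the part of read assignment in its value was not tested. The sum of both genes, 20663 and 23669, had a log2 ratio of 0.20 [0.16, 0.23].

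The sulfotransferases were the family with the lower sum, and its 2 most abundant genes carried it. *Sult1a1*, the phenol sulfotransferase, read 21706 in control against 16033 in iFIRKO liver, -0.44 [-0.48, -0.40], and was not called. *Sult2a8* (chr7:14410686-14446769, minus strand, 7 exons), which sulfonates bile acids, read 13278 and 7629, -0.80 [-0.86, -0.74]. *Sult5a1* (chr8:123140192-123158315, minus strand, 7 exons), whose substrates are little known, read 1936 and 1065, -0.86 [-1.02, -0.71]. Both called genes have hardly any sequence in common with other genes, 0% and 1.36% of their 50-base windows, and both intervals lie past the threshold.

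*Sult1d1*, which takes catecholamines, read 4234 and 3336, -0.34 [-0.44, -0.25], and was not called. *Sult1b1*, active on thyroid hormone, read 1571 and 1798, 0.19 [0.06, 0.34], and *Sult1c2* read 156.8 and 218.8, 0.47 [0.05, 0.92]. *Sult3a1* (chr10:33857721-33879532, plus strand), known for amine substrates and for its female-high level in mouse liver, read 339.6 and 533.3, 0.64 [0.37, 0.94]. It was called higher, though its interval reaches below the threshold. Its close copy *Sult3a2*, 91% identical in coding sequence, was under the minimum at 3.826 and 17.64.

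The tandem *Sult2a* genes on chromosome 7 were near or at 0 apart from *Sult2a8*. *Sult2a2* read 46.98 and 50.25, 0.09 [-0.79, 0.95], *Sult2a1* 16.89 and 16.11, and *Sult2a7*, next to *Sult2a8*, 13.91 and 37.64. *Sult2a5* had 1.49 and 2.013, and *Sult2a3*, *Sult2a4* and *Sult2a6* were listed at 0 in both. Among the other members under the minimum, the estrogen sulfotransferase *Sult1e1* read 1.987 in control against 18.08 in iFIRKO liver, which is 3 read pairs or fewer in the control and was given no fold. *Sult2b1* and *Sult4a1* had 1.987 and 3.974 in the control and were listed at 0 in the iFIRKO library, and *Sult1c1*, *Sult6b1* and *Sult6b2* were listed at 0 in both.

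The annotation places at least 1 gene on the opposite strand over *Gstm5*, *Gstz1*, *Sult1a1*, *Sult2b1*, *Sult6b1* and the Ugt1a genes. Reads of such overlapping genes can be told apart only where the counting used strand, which the sources used here do not give.

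Levels of different genes were compared per kb of exon sequence. In the control liver *Mgst1* was highest at 55000 normalized reads per kb, followed by *Gstm1* at 26400, *Gstp1* at 17800, *Sult1a1* at 14400 and *Ugt1a1* at 12500. In the iFIRKO liver *Mgst1* stood at 68800, *Gstm1* at 34500, *Gstp1* at 21700, *Ugt2b5* at 12300 and *Gsta3* at 11100. There *Sult1a1* stood at 10600 and *Ugt1a1* at 8480. *Ugt1a1* was above *Ugt1a9* in the control liver, 12500 against 7170 per kb, and below it in the iFIRKO liver, 8480 against 9460, with the division of shared reads not known. The order depends on the length used. Per kb of the main transcript the highest in the control liver were *Mgst1* at 94900, *Gstp1* at 33500, *Gsta3* at 32500, *Gstm1* at 30100 and *Sult1a1* at 16800, with *Ugt1a1* at 12500 below *Gstz1* at 13600.

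Promoter windows of 300 bases (250 before to 50 after each start, RefSeq, GRCm38.p6) were found for 59 members, 71 windows in all. The core of the antioxidant response element bound by NRF2, TGACNNNGC on either strand, was in 4 of the 71 windows (5.63%), beside 12.4% of the 32851 windows of all genes. By family it was in 4 of 32 Gst windows (12.5%), near the share of all genes, and in 0 of 19 Ugt and 0 of 20 Sult windows. The 4 genes were *Gsta3*, *Gstm5*, *Gstm7* and *Mgst1*, and none of them was called. A core of the HNF1 site, GTTAAT, was in 14 windows (19.7%), beside 7.1% of all. It was in 6 of 19 Ugt windows and 7 of 20 Sult windows, but in 1 of 32 Gst windows. Of the genes with this core only *Ugt3a1* was called, and every other called member had a window without it. Windows of close copies are not independent. The Sult windows include those of *Sult2a3*, *Sult2a4*, *Sult2a5* and *Sult2a6*, copies with 88.1% to 94% identical coding sequence that were at or near 0 reads. The Ugt windows include those of *Ugt1a9* and *Ugt1a10*, with 95.5% identity. The AhR core GCGTG was in 14 windows (19.7%), beside 32.4% of all, namely in 8 of 32 Gst, 2 of 19 Ugt and 4 of 20 Sult windows. A match describes letters only.

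The windows of 4 members are printed 5′ to 3′ on the gene's strand as examples of a match, namely *Mgst1*, which had the most reads, *Ugt1a1* and *Ugt1a9*, whose values had opposite signs, and *Ugt3a1*, which was called. Capitals mark a match, which reads as its reverse complement where it lies on the other strand: GCACGGTCA for the antioxidant core in *Mgst1* (chr6:138140277-138140576) and ATTAAC for the HNF1 core in *Ugt1a1* (chr1:88211709-88212008), *Ugt1a9* (chr1:88070529-88070828) and *Ugt3a1* (chr15:9279579-9279878).
Mgst1: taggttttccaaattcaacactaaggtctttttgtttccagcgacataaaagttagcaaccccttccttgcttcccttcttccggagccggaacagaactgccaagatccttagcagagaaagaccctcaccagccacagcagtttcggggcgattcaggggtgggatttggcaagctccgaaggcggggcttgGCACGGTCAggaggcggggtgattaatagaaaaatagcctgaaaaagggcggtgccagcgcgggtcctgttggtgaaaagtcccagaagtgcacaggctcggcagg
Ugt1a1: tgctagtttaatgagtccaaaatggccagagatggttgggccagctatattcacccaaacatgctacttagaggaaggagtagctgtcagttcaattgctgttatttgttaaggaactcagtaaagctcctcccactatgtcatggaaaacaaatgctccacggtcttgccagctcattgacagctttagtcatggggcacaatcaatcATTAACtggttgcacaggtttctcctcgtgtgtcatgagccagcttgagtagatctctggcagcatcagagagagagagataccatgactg
Ugt1a9: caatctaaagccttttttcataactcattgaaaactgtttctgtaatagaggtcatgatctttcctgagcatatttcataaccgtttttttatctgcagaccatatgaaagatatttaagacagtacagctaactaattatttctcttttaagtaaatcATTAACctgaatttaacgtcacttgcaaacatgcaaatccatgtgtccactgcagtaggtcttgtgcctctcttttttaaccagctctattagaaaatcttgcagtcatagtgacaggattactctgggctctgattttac
Ugt3a1: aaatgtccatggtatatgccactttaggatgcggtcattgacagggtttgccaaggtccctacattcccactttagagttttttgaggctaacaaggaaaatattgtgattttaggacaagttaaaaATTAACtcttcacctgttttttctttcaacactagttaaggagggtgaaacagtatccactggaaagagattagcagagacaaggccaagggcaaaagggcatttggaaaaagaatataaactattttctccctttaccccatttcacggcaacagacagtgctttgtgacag
The HNF1 core stands in *Ugt1a1*, *Ugt1a9* and *Ugt3a1*, and its part in any of these values was not tested. *Ugt3a2*, the close copy of *Ugt3a1* that was not called, had no window to compare.

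Genes that supply the donors were read from lists of known pathway genes. Calls in each list stand beside 4.46% higher and 7.28% lower among all 13400 genes, so a few calls in a short list are not read as a result about it. For glutathione synthesis and the later steps to mercapturic acids, 1 of 15 tested genes was higher and 2 lower, with a median log2 fold change of -0.01. These 3 calls became 1 with a pseudocount of a CPM of 1, and 1 with a minimum CPM of 5. *Gclc* and *Gclm*, the subunits of the rate-limiting ligase, read 9999 and 10247 with 0.04, and 7619 and 7719 with 0.02. *Cbs* and *Cth*, which supply cysteine, read 32315 and 34687 with 0.10, and 16207 and 13787 with -0.23. The called genes were all of low level. *Nat8*, which acetylates cysteine conjugates, read 285.3 and 434.8 with 0.60, *Chac1*, which degrades glutathione, 187.3 and 81.97 with -1.15, and the dipeptidase gene *Dpep1* 63.82 and 40.27 with -0.61.

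Donor supply for the other families was described in the same way. None of the 6 genes listed around UDP-glucuronic acid and glucuronides was called, with a median of 0.09. *Ugp2*, which makes UDP-glucose, read 8743 and 11707 with 0.42, *Ugdh*, which oxidizes it to UDP-glucuronic acid, 5535 and 5479 with -0.01, and the carrier gene *Slc35d1* 4147 and 4617 with 0.15. Of 11 genes for PAPS and sulfate, 1 was higher and 1 lower, with a median of -0.03. *Papss2*, which makes PAPS, read 18412 in control against 10357 in iFIRKO liver, -0.83. *Papss1* read 630.4 and 603.9 with -0.06. *Cdo1*, which oxidizes cysteine to its sulfinic acid, read 40294 and 35652 with -0.18, and *Csad*, which takes that product to taurine, 14744 and 23495 with 0.67.

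**Figure D4:**
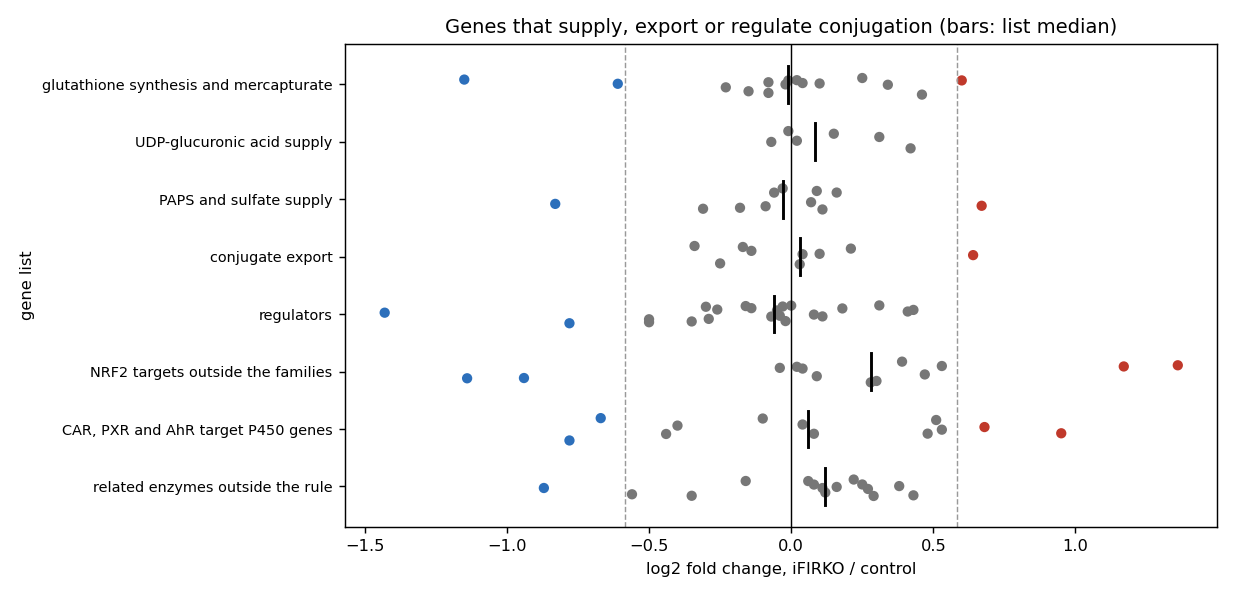
Log2 fold change (iFIRKO over control) of tested genes in 8 lists around conjugation, 1 point per gene, with black bars at the list medians, dashed lines at 1.5-fold and called genes in red (higher) or blue (lower). List medians lie between -0.06 and 0.28, and 4 lists have called genes on both sides of 0.

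Exporters take conjugates out of the cell. Of 9 tested, 1 was higher and 0 lower, with a median of 0.03. *Abcg2*, which exports sulfates among others, read 2544 and 3978 with 0.64. The canalicular exporter *Abcc2* read 16945 and 17435 with 0.04, *Abcc3*, of the sinusoidal side, 14000 and 11797 with -0.25, and *Abcc6* 8030 and 7157 with -0.17.

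Of 22 regulators of these genes 0 were higher and 2 lower, with a median of -0.06. *Maff*, a small Maf partner of NRF2, read 136.5 and 47.98 with -1.43, and *Cux2*, a factor of female mouse liver, 839.3 and 485.4 with -0.78. Those with the most reads were *Hnf4a*, 29516 and 28673 with -0.04, *Rxra*, 14902 and 14396 with -0.05, and *Cebpa*, 8840 and 8411 with -0.07. mRNA levels of a regulator say nothing of its activity.

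Target genes of these regulators outside the conjugation families included calls on both sides. Of 13 tested NRF2 targets, 2 were higher and 2 lower, with a median of 0.28. *Ephx1*, the microsomal epoxide hydrolase, read 9247 and 23690 with 1.36, and *Cbr3* 21.86 and 54.36 with 1.17, while *Osgin1* read 10136 and 4597 with -1.14 and *G6pdx* 340.8 and 175.7 with -0.94. The list shares *Gclc*, *Gclm* and *Slc7a11* with the glutathione list. Of 12 CAR, PXR and AhR targets, 2 were higher and 2 lower, with a median of 0.06. *Alas1*, which starts heme synthesis, read 9983 and 19261 with 0.95, and *Cyp2c55* 146.8 and 237.9 with 0.68, while *Cyp2b10* read 5755 and 3346 with -0.78 and *Cyp1a2* 19255 and 12125 with -0.67. *Cyp3a11*, with the most reads of the list, had 233166 and 240410 with 0.04, and *Cyp2c29* 58816 and 84913 with 0.53.

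Of 15 tested enzymes that conjugate by other routes or resemble the families, 0 were higher and 1 lower, with a median of 0.12. The called gene, *Alox5ap*, a relative of the microsomal transferases found in leukocytes, read 200.6 and 108.2 with -0.87. *Inmt* read 25970 and 29109 with 0.16, and *Baat*, which joins bile acids to taurine or glycine, 11228 and 13091 with 0.22.

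Markers of the cells in the tissue were read beside these values, since in whole liver fewer cells of a type and less RNA per cell cannot be told apart. All 10 hepatocyte markers were tested, 0 higher and 1 lower, with a median log2 fold change of -0.01. Their sum went from 5281902 to 5003532 normalized reads, a log2 ratio of -0.08. *Alb* held most of that sum, at 4167154 and 3944155 with -0.08, and the called gene *Apoa1* read 168382 and 87600 with -0.94. Kupffer cell and macrophage markers were lower in 5 of 8, with sums of 30092 and 19564, endothelial markers in 3 of 8, with sums of 13672 and 9862, and leukocyte markers in 5 of 5 tested, with sums of 1608 and 708. Cholangiocyte (2357 and 2036) and stellate (11625 and 12665) markers had no called gene, and erythroid markers were higher in 6 of 6 (13455 and 27006). Pericentral markers were lower in 1 of 9 (207124 and 166737) and periportal markers in 0 of 7 (405952 and 351959). Male-high liver genes were higher in 6 and lower in 2 of 10 (69071 and 101780), and female-high genes higher in 1 and lower in 2 of 8 (30179 and 30300). Among all 13400 genes, 4.46% were called higher and 7.28% lower. No marker of these lists was at 0 in both libraries. Their part in the values of the conjugation genes was not tested. *Insr*, deleted in adipocytes only, read 4246 and 3692.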

How the data were processed

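Liver RNA of 1 control and 1 iFIRKO sample was analysed. The authors deposited log2 values of normalized read counts for each gene symbol, with values of 1 or less on the linear scale listed as 0. The submitters' processing notes name the build mm10, while the aligner, counter, annotation, strand setting and treatment of reads that match several genes are not given in the sources used here, so values of close copies, overlapping genes and antisense genes are uncertain. The commonest low value was taken as 1 read pair, and with a tolerance of 0.05 read only 12.5% of tested members in the control and 18.8% in the iFIRKO library were whole reads, so depths are estimates and no count model was run.

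The members, gene lists and comparisons were chosen with earlier results of these data known. Every member at a CPM of 10 (418 normalized reads) or more in 1 or both libraries is named with both values, and so is every member at a CPM of 1 to 10 past 1.5-fold. Others named here from lower levels are given as values, without a fold at 3 estimated read pairs or fewer in either library. Of each pathway list the genes past the fold and up to 3 by level are named. *Gclm*, *Papss1*, *Gm3776* and *Gm10639* were named outside this rule, after their values were seen. For 1 list gene that this rule would name, no result is reported here. Files held no columns of other samples (0).

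Transcripts and positions came from GENCODE M21, and promoters from RefSeq. No protein table was used, so identity was computed on coding sequences by edit distance (edlib 1.3.9.post1). The scripts ran on Python 3.11.15 with scipy 1.17.1, numpy 2.4.6, matplotlib 3.10.9 and pandas 2.3.3, and were tested on simulated libraries. Settings tried in place of those above were 3 other scalings, a fold of 2, a larger pseudocount (a CPM of 1) or none, other minimums (none, a CPM of 5, or the same minimum required of both libraries), rows of the same symbol or of the same subclass summed, and sums that leave out the top member.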

Additional observations from a re-analysis of the deposited data

How the results depend on the processing

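With 1 library per group, neither spread between animals nor a batch can be separated from genotype, and depth limits members of few reads. No paired analysis was possible because there is only a single library for control and for iFIRKO. The Gst sum had a log2 ratio of 0.23 under median-ratio scaling, 0.23 under a total without the 20 most abundant genes, 0.32 under scaling to hepatocyte markers and 0.19 without *Mgst1*. The Ugt sum had 0.12 under scaling to hepatocyte markers and 0.14 without *Ugt1a1*, and the Sult sum had -0.42 and, without *Sult1a1*, -0.55. Above 2-fold, 1 Gst, 0 Ugt and 0 Sult members were higher and 0 Sult members lower. With subclasses summed, 0 Gst and 0 Ugt subclasses were higher and 0 Ugt subclasses lower. With no minimum, 1 Gst member was lower, 2 Ugt and 4 Sult members were higher, and the Sult median turned from -0.13 to 0.09, because members of few reads entered. Among the 43 named members, no call was lost or gained under another pseudocount, the plain ratio or the 3 other scalings. Median-ratio scaling shifted every gene by only -0.010 on the log2 scale, and the total without the 20 most abundant genes by only -0.012. Shifts this small could hardly change a call. *Ugt2b1* changed sign under median-ratio scaling and under the total without the 20 most abundant genes, and *Ugt1a6a*, *Ugt2b34*, *Gstt1*, *Gstp3* and *Gsto1* did under scaling to hepatocyte markers, which shifted every gene by 0.078 on the log2 scale. The calls in the list of other conjugating enzymes went from 1 to 2 under the plain ratio, 3 with no minimum and 0 with a minimum CPM of 5, and those among regulators from 2 to 1 with that minimum. Over all genes, 597 higher and 976 lower calls became 371 and 576 with a pseudocount of a CPM of 1, 288 and 440 with a minimum CPM of 5, 1960 and 2620 with no minimum, and 790 and 773 with scaling to hepatocyte markers.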
